A study of Mus musculus with 2 samples.

Results

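The collagens other than type I described here are 10 genes: Col3a1, Col5a1 and Col5a2, which encode chains of the fibril-forming types III and V, Col4a1 and Col4a2, which encode the type IV chains of basement membranes, Col6a1, Col6a2 and Col6a3, which encode the chains of the beaded filaments of type VI, Col14a1, which encodes the fibril-associated type XIV, and Col15a1, which encodes type XV, a collagen with chondroitin sulfate chains found next to basement membranes. They were chosen by gene symbol, and each symbol matched 1 of the 32285 genes in the tables of both sections. Below, fibrillar means Col3a1, Col5a1 and Col5a2 together, basement membrane means Col4a1 and Col4a2, and type VI means its 3 genes. The type I genes Col1a1 and Col1a2 are given beside them for comparison.

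The data are Visium spatial transcriptomes of mouse liver, in which barcoded spots on a slide capture polyadenylated RNA from a tissue section and a random tag on each captured molecule, the unique molecular identifier (UMI), lets copies of it be counted as 1. Male C57BL/6J mice arrived at 5 weeks of age, were acclimated for 1 week, and then received a normal chow diet (NCD) or a high-fat diet (HFD) given as 60%. The diet phase lasted 14 weeks and was followed by 8 weeks of gavage with distilled water in both groups. From each group 1 randomly chosen mouse gave 1 fresh-frozen section of 10 µm, cut from liver taken after perfusion. With 1 section per diet no test between diets was possible, and diet, animal, section and slide cannot be told apart. The intervals given below are exact 95% intervals of the counts and cover counting error only.

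Collagens are trimers of chains wound into a triple helix. Types III and V co-assemble with type I into the banded fibrils of portal tracts, capsule and scar, type IV forms the sheet-like network of basement membranes around vessels and bile ducts, and type VI forms filaments between them. In liver, stellate cells, portal fibroblasts and vascular smooth muscle are the main makers of fibrillar collagen, endothelial cells also make type IV, and the fibrillar types are those that build up in fibrosis.

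The sections differed in depth. NCD had 3692 spots over tissue with 29037988 UMIs and a median of 4187.5 UMIs per spot, and HFD had 3594 spots with 72118803 UMIs and a median of 18549. In NCD 840 spots held fewer than 1000 UMIs, against 4 in HFD. Spots outside the tissue outline held 19.1% of all UMIs on the NCD slide, with a median of 3383 per spot, and 2.93% on the HFD slide, with a median of 1175.5. Levels are therefore given as UMIs of a gene per 1000000 UMIs of the spots (CPM). Shares of spots with a collagen UMI are given after spots with at least 3000 UMIs were randomly drawn down to that depth. Drawing down left out 1585 of 3692 NCD spots and 56 of 3594 HFD spots, which held fewer UMIs. All 4992 spot barcodes belong to both slides by construction, and 3173 lay over tissue in both.

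The submitted labels name the tissue liver but the cell type immune cell and the cell line hematopoietic stem cell, and the data go against both cell labels. Alb, the serum albumin of hepatocytes, was at 56011 CPM in NCD and 57872 CPM in HFD. Ptprc, the pan-leukocyte CD45, was at 6.61 and 10.7 CPM, and Kit, a receptor of stem and mast cells, at 3.06 and 3.02 CPM. The sections are thus described as liver tissue, in which a spot can hold several cells of different types.

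The level of each of the 10 collagens was higher in HFD than in NCD. Their summed level was 69.5 CPM in NCD and 275 CPM in HFD, a log2 ratio of 1.98 (1.92 to 2.05). All 10 were at least 2-fold higher in HFD, whereas 11.9% of the 12919 genes with at least 50 UMIs were, and none was 2-fold lower, a class that held 2.5% of genes. The 10 were chosen with earlier results of these data known, so this contrast is no independent support. The minimum was on the UMIs of both sections together. Col15a1, with 28 in NCD and 331 in HFD, and Col5a2, with 47 and 649, passed it through HFD alone. Of the further collagen genes that reached it, 6 of 9 were 2-fold higher. With spots of at least 3000 UMIs drawn down to that depth 9 of the 10 collagens were 2-fold higher, against 8.85% of 9820 genes, since Col6a1 was at a log2 ratio of 0.88. The Col6a1 counts moved with the random draw. Its shares of spots were 2.04% in NCD and 3.59% in HFD, but 1.42% and 4.18% with another seed. The median log2 ratio was 1.98 over the 10 collagens and 0.25 over all genes. In spatial sums, more collagen-making cells and more RNA per cell cannot be told apart.

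Among the fibrillar genes, Col3a1, the single chain of type III, had 410 UMIs in NCD or 14.1 CPM (12.8 to 15.6), and 6765 UMIs in HFD or 93.8 CPM (91.6 to 96.1). Its log2 ratio was 2.73 (2.59 to 2.88), which 133 of the 12919 genes exceeded. This was the highest estimate among the 10 collagens, with an interval that overlaps those of Col5a2 and Col15a1. At 1000 UMIs per spot Col5a2 was at 4.88 beside 2.86 for Col3a1. Only 1 of 2852 NCD spots then held a Col5a2 UMI, so that value decides no order. Col5a2, the α2 chain of the type V that nucleates fibrils, was at 1.62 CPM in NCD and 9.0 CPM in HFD, a log2 ratio of 2.48 (2.05 to 2.93). Col5a1, its α1 chain, was at 2.55 and 9.90 CPM, a log2 ratio of 1.96 (1.61 to 2.32). The order of these 2 ratios turned when spots were drawn down to 3000 UMIs, to 1.80 for Col5a2 and 2.06 for Col5a1. With another seed, NCD spots with Col5a1 numbered 8 in place of 17, and HFD spots with Col5a2 89 in place of 68. The turn is therefore not separated from the random draw. The fibrillar set as a whole went from 18.3 to 113 CPM, a log2 ratio of 2.62 (2.50 to 2.75), above that of the type I genes, 15.9 and 66.2 CPM with 2.06 (1.92 to 2.20). Within type I, Col1a1 was at 5.68 and 29.2 CPM and Col1a2 at 10.2 and 37.0 CPM.

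Among the basement membrane genes, Col4a1 was at 12.9 CPM in NCD and 50.6 CPM in HFD, and Col4a2 at 6.16 and 24.8 CPM. Their log2 ratios were nearly equal, 1.98 (1.82 to 2.13) and 2.01 (1.79 to 2.24). The set was at 19.0 CPM in NCD, close to the fibrillar set of that section, and at 75.5 CPM in HFD, well below it.

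Type VI had a smaller ratio, 11.7 CPM in NCD and 37.3 CPM in HFD, or 1.67 (1.51 to 1.84) on the log2 scale. Its chains differed among themselves. Col6a3, the long α3 chain whose C-terminal end is released as endotrophin, was at 4.79 and 18.9 CPM, a log2 ratio of 1.98 (1.73 to 2.24). Col6a1 was at 4.55 and 12.0 CPM, a ratio of 1.40 (1.14 to 1.68), and Col6a2 at 2.38 and 6.43 CPM, a ratio of 1.44 (1.07 to 1.82).

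Col14a1, whose product binds to the surface of fibrils, had the highest level of the 10 in NCD and the smallest ratio, 19.5 CPM against 44.8 CPM in HFD or 1.20 on the log2 scale, exceeded by 1070 genes. The rank of its ratio is not settled, since after drawing down to 3000 UMIs Col6a1 had the smallest, 0.88 beside 1.12 for Col14a1. Depth was not separated here from the random draw. With the other seed Col6a1 was in 30 NCD and 148 HFD spots, in place of 43 and 127. With off-tissue CPM subtracted, 18.6 CPM in NCD, the Col14a1 ratio was 4.75 over an NCD remainder of 0.828 CPM. The log2 ratio of Col14a1 over tissue to off tissue in NCD was 0.06 (-0.22 to 0.35). That remainder is therefore not separable from 0, and 4.75 gives no size. Col15a1 was the lowest in both sections, with 28 UMIs or 0.964 CPM in NCD and 331 UMIs or 4.59 CPM in HFD, a log2 ratio of 2.25 (1.69 to 2.86).

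**Figure D1:**
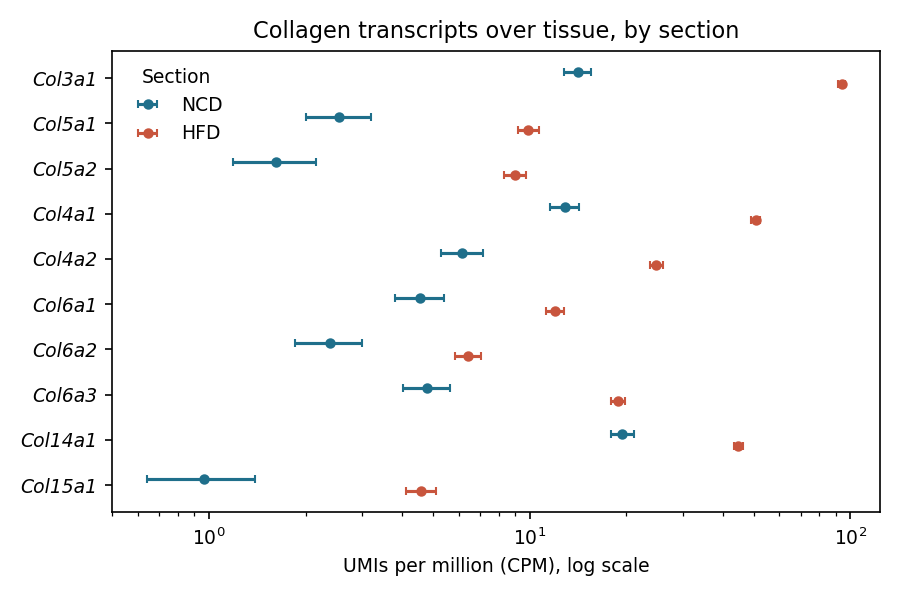
Level of each of the 10 collagens over tissue in the NCD and HFD sections, in CPM on a log scale. Points are pooled CPM of 1 section each and bars are exact 95% Poisson intervals; each HFD point lies to the right of its NCD point, with Col3a1 at 14.1 and 93.8 CPM.

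The order of the genes differed between the sections. A UMI stands for 1 molecule captured at its 3′ end, so these levels need no division by transcript length, but capture may differ between genes. In NCD the order was Col14a1, Col3a1, Col4a1, Col4a2, Col6a3, Col6a1, Col5a1, Col6a2, Col5a2 and Col15a1, and the ratio interval held 1 for the neighbours Col3a1 and Col4a1, Col6a3 and Col6a1, Col5a1 and Col6a2, and Col6a2 and Col5a2. In HFD it was Col3a1, Col4a1, Col14a1, Col4a2, Col6a3, Col6a1, Col5a1, Col5a2, Col6a2 and Col15a1, and only Col5a1 and Col5a2 were not separated by their counts. Col14a1 made up 28.0% of the UMIs of the 10 genes in NCD and 16.3% in HFD, whereas Col3a1 made up 20.3% and 34.1%.

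The fibrillar and basement membrane sets, as defined here, were near parity in NCD, and the fibrillar set was ahead in HFD. The comparison holds for these sets only. Type I, at 15.9 CPM in NCD, and Col5a3 are fibril-forming but outside the fibrillar set, and the abundant Col18a1 is in neither set. Of the 8128 fibrillar UMIs in HFD, 6765 were of Col3a1. The ratio of summed UMIs was 0.960 (0.851 to 1.08) in NCD and 1.49 (1.44 to 1.55) in HFD, and the log2 ratio of these ratios was 0.64 (0.46 to 0.82). With off-tissue CPM subtracted no NCD ratio could be formed, since both sets were at higher CPM off tissue there, 21.8 and 21.1. The ratio of Col3a1 to type I UMIs was higher in HFD as well, at 0.889 in NCD and 1.42 in HFD.

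Chains that share a trimer were compared within each section, where a capture efficiency particular to a gene cancels between sections. Within a section such an efficiency does not cancel, so a UMI ratio does not give the number of chains in a trimer. For type IV, Col4a1 exceeded Col4a2 by 2.09-fold (1.74 to 2.51) in NCD and 2.04-fold (1.93 to 2.16) in HFD. Col6a1 to Col6a2 was likewise close in the sections, 1.91 (1.42 to 2.60) and 1.87 (1.67 to 2.09). The other pairs were further apart, since Col6a3 to Col6a1 was 1.05 (0.824 to 1.35) in NCD and 1.57 (1.44 to 1.71) in HFD, and Col5a1 to Col5a2 was 1.57 (1.08 to 2.32) and 1.10 (0.988 to 1.23). For type V the log2 ratio of ratios, -0.52 (-1.10 to 0.05), had an interval that held 0 at this depth, while for Col6a3 to Col6a1 it was 0.58 (0.20 to 0.95). The ratios of chains moved on drawing down, where depth was not separated from the random draw. Drawn down to 3000 UMIs, they were 2.53 in NCD and 1.94 in HFD for type IV, 2.53 and 1.85 for Col6a1 to Col6a2, 0.814 and 1.29 for Col6a3 to Col6a1, and 1.42 and 1.7 for type V, whose log2 ratio of ratios thus turned to 0.26. At 1000 UMIs, a depth chosen for these pairs after seeing the data, type IV was at 1.23 in NCD and 2.10 in HFD, Col6a1 to Col6a2 at 1.33 and 1.42, and Col6a3 to Col6a1 at 1.25 and 2.0. Type V was at 8.0 and 0.865, a log2 ratio of ratios of -3.21. Only 1 NCD spot held a Col5a2 UMI at that depth, so no direction is read from it. With the other seed at 3000 UMIs, NCD spots with Col6a1 and with Col6a2 numbered 30 and 23 in place of 43 and 17. For type V, NCD spots with Col5a1 then numbered 8 in place of 17, and HFD spots with Col5a2 89 in place of 68.

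Collagen transcripts were also found in more spots at equal depth. Drawn down to 3000 UMIs, 2107 NCD spots and 3538 HFD spots could be compared. A UMI of any of the 10 collagens was present in 18.1% (16.5 to 19.8) of NCD spots and 49.8% (48.2 to 51.5) of HFD spots. Col3a1 was present in 3.46% and 21.8%, against 8.34% and 67.2% before drawing down. For the fibrillar set the shares were 4.56% and 25.2%, for the basement membrane set 5.74% and 19.4%, and for type VI 4.32% and 9.24%. In NCD the intervals of the fibrillar and basement membrane shares overlap (3.71 to 5.54 and 4.79 to 6.82), so their order there is open, while in HFD the fibrillar share was the highest.

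The gap between the sections was also present among spots of like depth. In spots of 3000 to 10000 UMIs (1069 in NCD, 513 in HFD) the fibrillar set was at 21.4 and 103 CPM, in those of 10000 to 30000 (872 and 2412) at 19.5 and 109 CPM, and in deeper ones (166 and 613) at 12.8 and 122 CPM. Of the collagens with at least 50 UMIs in a class, 8 of 8, 10 of 10 and 10 of 10 had intervals of the HFD to NCD ratio above 0 on the log2 scale, as had 28.1%, 47.7% and 47.5% of all genes with that many. That minimum was on the UMIs of both sections together, so a gene could pass it through HFD alone. In the deepest class Col5a2 had 7 NCD and 221 HFD UMIs, and Col15a1 had 7 and 118. These counts are thus in part set by the minimum. In spots of 1000 to 3000 UMIs, only 52 of them in HFD, no collagen reached 50 UMIs, and 2 of 10 had such an interval, Col3a1 and Col14a1, beside 9.01% of the 2919 genes that reached it. For the basement membrane set the log2 ratios were 1.68, 1.98 and 2.38, and for type VI 1.3, 1.55 and 2.52.

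Position in the lobule was read from the transcripts of each spot. Hepatocytes near the central vein and near the portal tract express different enzymes, and spots with at least 1000 UMIs were scored by 8 periportal genes, such as Cyp2f2, Hal and Sds, minus 8 pericentral genes, such as Glul, Cyp2e1 and Oat, and split into 3 equal parts within each section, pericentral, midlobular and periportal. Genes outside the score followed the zones: 6 further pericentral genes summed were lower in periportal spots by a log2 ratio of -1.63 in NCD and -0.78 in HFD, and 6 further periportal genes were higher by 0.71 and 0.58. The bile duct gene Epcam was also higher in periportal spots, by 3.39 and 2.35. The zones held 951, 950 and 951 spots in NCD and 1197, 1196 and 1197 in HFD, from pericentral to periportal.

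Summed by set, the collagens differed less between the zones. In NCD the fibrillar set was at 20.1 CPM in pericentral, 17.0 in midlobular and 17.8 in periportal spots, and in HFD at 111, 117 and 111 CPM. The periportal to pericentral log2 ratio was -0.17 (-0.49 to 0.14) in NCD and 0.01 (-0.07 to 0.08) in HFD. The basement membrane set leaned to the portal side in NCD, with 16.8, 17.9 and 22.4 CPM and a log2 ratio of 0.41 (0.10 to 0.73), and was at 71.6, 79.0 and 75.7 CPM in HFD, a ratio of 0.08 (-0.01 to 0.18). Type VI was at 11.7, 10.2 and 13.3 CPM in NCD and 33.1, 37.5 and 40.1 CPM in HFD, a ratio of 0.28 (0.14 to 0.41) in HFD. These differences between zones are small beside those between the sections.

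Few single genes passed a fold of 1.5 between the zones. In NCD 6 of the 10 collagens had at least 50 UMIs in the outer zones and none was 1.5-fold higher or lower in periportal spots, where 3.85% and 8.12% of 9514 genes were. In HFD 1 of 10 was 1.5-fold higher and none was 1.5-fold lower, against 4.78% and 5.49% of 11975 genes. That gene was Col6a3, at 14.2, 18.0 and 22.8 CPM from pericentral to periportal, a log2 ratio of 0.69 (0.49 to 0.89). It was under 1.5-fold at 0.53 without the 1% of spots richest in collagen, where none of the 10 passed, and at 0.46 with spots drawn down to 3000 UMIs. Its partner chain Col6a1 ran the other way in the HFD section, at 13.8, 12.2 and 10.6 CPM, a ratio of -0.38 (-0.62 to -0.15). The Col6a1 ratio was -0.058 when drawn down, and -0.78 (-1.18 to -0.38) in spots without smooth muscle UMIs. In NCD the ratios of these 2 genes had the opposite signs, -0.34 for Col6a3 and 0.49 for Col6a1, with intervals that held 0. Smaller HFD differences toward the periportal side, with intervals above 0, were those of Col5a2, 0.44 (0.15 to 0.73), and Col6a2, 0.38 (0.04 to 0.73). Drawn down to 3000 UMIs, Col5a2 turned to -0.086 and Col6a2 was at 0.63.

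Col3a1 was lower in periportal spots of NCD, at 12.5 against 16.7 CPM or a log2 ratio of -0.42 (-0.79 to -0.06), and even in HFD, at 92.6 against 93.5 CPM. Col4a1 was higher in periportal spots of NCD, at 14.6 against 10.4 CPM or 0.48 (0.09 to 0.88), and near even in HFD at 0.11. Col14a1 had ratios of 0.12 and 0.07 in NCD and HFD, with both intervals holding 0.

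Smooth muscle transcripts were not even across the zones. A UMI of Acta2, the smooth muscle actin of vessel walls and of activated stellate cells, was found in 1.26% of pericentral, 6.63% of midlobular and 6.73% of periportal spots in NCD, and in 13.4%, 20.3% and 34.1% in HFD. These shares are at full depth, with medians of 7307, 7573 and 5448 UMIs per spot in the NCD zones and 16370, 15841.5 and 24186 in those of HFD. Drawn down to 3000 UMIs, which was added after seeing the data, they were 0.67%, 3.30% and 3.62% in NCD and 2.73%, 7.51% and 7.38% in HFD. Spots with no UMI of 5 smooth muscle genes at full depth numbered 817 periportal and 902 pericentral in NCD, and 513 and 814 in HFD. Among them the fibrillar set was lower in periportal than in pericentral spots in both sections, at 11.6 against 18.0 CPM in NCD and 76.8 against 94.9 CPM in HFD. The log2 ratios were -0.63 (-1.05 to -0.22) and -0.31 (-0.43 to -0.18), and with spots drawn down before those with muscle UMIs were left out, also added after seeing the data, -0.72 and -0.11, so that the HFD value is smaller at equal depth. No interval is given for the drawn-down values, so a lower periportal level in HFD is not settled at equal depth. The basement membrane set in those spots had ratios of 0.29 (-0.06 to 0.64) and -0.12 (-0.27 to 0.02). Type VI in those spots was at -0.44 (-0.97 to 0.07) and 0.06 (-0.17 to 0.29), so its HFD interval no longer lay above 0. Col6a3 in those spots was again unlike between sections, at -1.25 (-2.22 to -0.36) in NCD and 0.60 (0.26 to 0.93) in HFD.

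The HFD level was above that of NCD in each zone. For the fibrillar set it was 2.46, 2.78 and 2.64 on the log2 scale from pericentral to periportal, and for the basement membrane set 2.09, 2.14 and 1.75. For Col6a1 it was 0.96 (0.50 to 1.44) in periportal and 1.83 in pericentral spots.

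**Figure D2:**
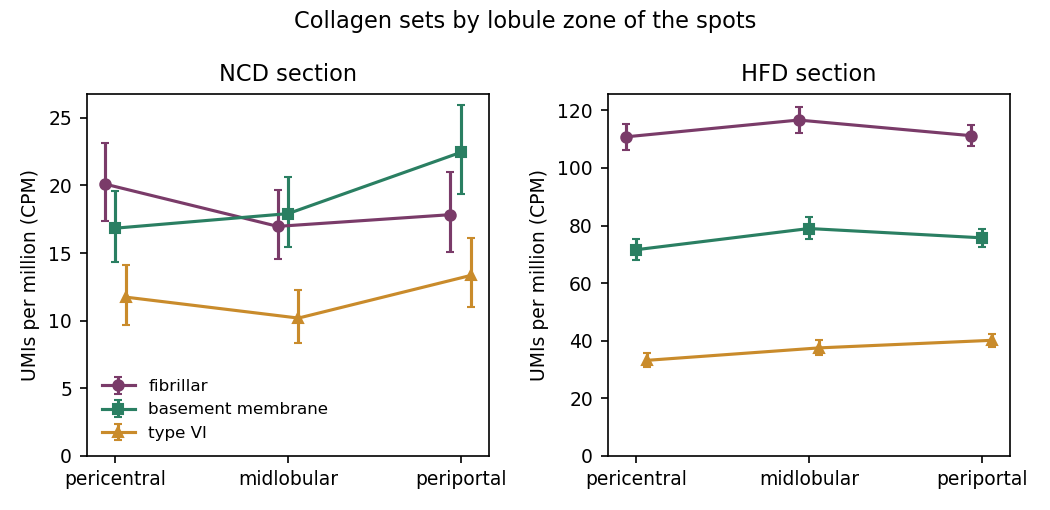
Summed level of fibrillar, basement membrane and type VI collagens in pericentral, midlobular and periportal spots of the NCD section (left) and the HFD section (right), in CPM with exact 95% Poisson intervals; the vertical scales differ. The fibrillar set was at 20.1, 17.0 and 17.8 CPM in NCD and at 111, 117 and 111 CPM in HFD.

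Spots with Acta2 were then compared with spots without. In NCD 141 spots or 3.82% had at least 1 Acta2 UMI, and in HFD 811 or 22.6%, against 2.47% and 5.88% of spots drawn down to 3000 UMIs, shares likewise added after seeing the data. Such spots were deeper, with a median of 12607 against 3915 UMIs in NCD and 22019 against 17552 in HFD. Acta2 itself was at 9.06 CPM in NCD and 28.7 CPM in HFD. Other smooth muscle genes followed the class, with log2 ratios of 3.94 and 2.94 in NCD and HFD for Myh11, the smooth muscle myosin heavy chain, and of 3.81 and 2.27 for Tagln, an actin-binding protein of smooth muscle.

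Fibrillar and type VI transcripts were concentrated in spots with Acta2, and basement membrane transcripts less so. In NCD the fibrillar set was at 56.0 CPM with Acta2 and 15.4 without, a log2 ratio of 1.86 (1.55 to 2.16), and type VI was at 39.3 and 9.63 CPM, a ratio of 2.03 (1.65 to 2.39). The basement membrane set was at 26.0 and 18.5 CPM, a ratio of 0.49 (0.05 to 0.90). In HFD the same sets had ratios of 0.79 (0.72 to 0.85) for fibrillar, from 163 and 94.5 CPM, 1.21 (1.10 to 1.32) for type VI, from 63.8 and 27.7 CPM, and 0.42 (0.34 to 0.50) for basement membrane, from 92.7 and 69.2 CPM. The ratio was therefore smaller in HFD for the fibrillar and type VI sets, with intervals of the sections that did not meet, and near that of NCD for type IV under this call. With spots drawn down to 3000 UMIs before the call, the basement membrane ratio was 2.04 in NCD and 1.00 in HFD, so the likeness was not seen at equal depth, where NCD counts are few.

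By gene, 5 of the 8 collagens with at least 50 UMIs were at least 2-fold higher in NCD spots with Acta2, against 3.44% of 10495 genes, and none was 2-fold lower, against 2.49%. The 5 were Col3a1, Col5a1, Col6a1, Col6a2 and Col6a3. In HFD 2 of 10 were at least 2-fold higher, Col6a2 and Col6a3, against 2.68% of 12468 genes, and none was 2-fold lower, against 0.297%. The count depends on the call: drawn down to 3000 UMIs before it, 8 of 10 were 2-fold higher in HFD, against 4.35% of 8849 genes, as were the 3 that reached 50 UMIs in NCD, against 9.27% of 6750. With at least 2 Acta2 UMIs 6 of 10 were in HFD, but without a share of all genes beside it nothing is read from that count. Under the main call the intervals lay above 0 for 7 of the 8 collagens with at least 50 UMIs in NCD, against 7.36% of genes, and for 10 of 10 in HFD, against 14.7%. Col6a3 had 17.2 CPM with and 3.85 without Acta2 in NCD, and 34.2 and 13.3 CPM in HFD, log2 ratios of 2.16 and 1.36. Col6a2, at 12.4 and 4.27 CPM in HFD, had a ratio of 1.54 (1.27 to 1.81), or 1.19 with spots drawn down before the call, where Col6a1 was highest at 2.09, and 51.3% of its HFD UMIs lay in the spots with Acta2.

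Col3a1 was at 43.7 CPM with and 11.9 without Acta2 in NCD, and at 137 and 78.1 CPM in HFD, log2 ratios of 1.88 and 0.81. Of its HFD UMIs, 38.9% lay in spots with Acta2, which held 26.6% of all UMIs. Col14a1 was at 51.5 and 42.3 CPM in HFD, a ratio of 0.28 (0.17 to 0.39), or 1.01 with spots drawn down before the call, and at a ratio of 0.78 (0.39 to 1.16) in NCD. For Col4a2 in NCD the interval held 0, at 0.28 (-0.59 to 1.04), as it did for Col15a1 with 4 UMIs in spots with Acta2.

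**Figure D3:**
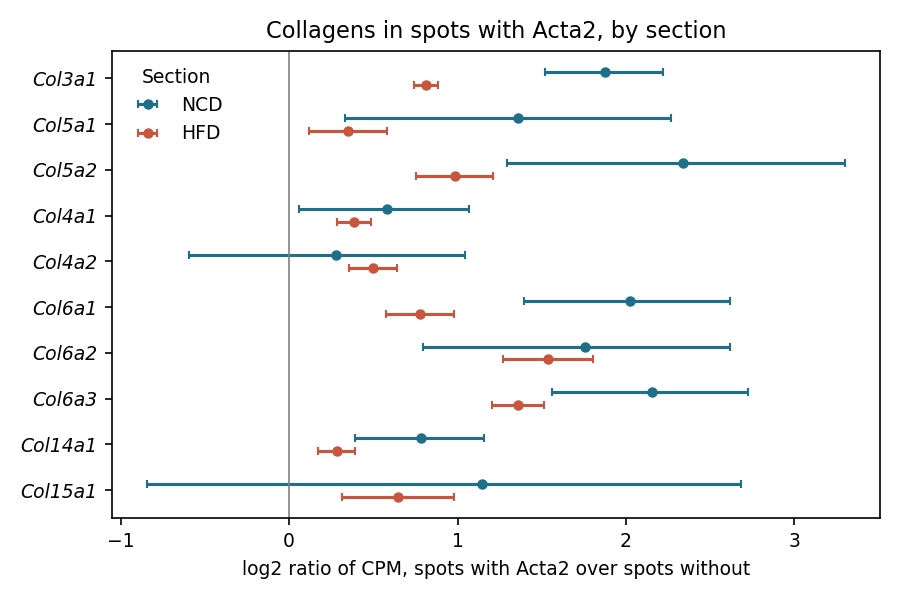
Log2 ratio of CPM in spots with at least 1 Acta2 UMI over spots with none, for each collagen in the NCD and HFD sections, with exact 95% intervals; the vertical line marks 0. Col6a3 is at 2.16 in NCD and 1.36 in HFD, while Col4a2 in NCD and Col15a1 in NCD have intervals that cross 0.

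The difference between the sections was present in both classes of spots, but was larger without Acta2 for the fibrillar set. Without Acta2 the fibrillar log2 ratio of HFD to NCD was 2.61 (2.47 to 2.76), and with Acta2 it was 1.54 (1.27 to 1.82). For type VI the ratios were 1.52 (1.33 to 1.72) and 0.70 (0.37 to 1.05). For the basement membrane set they were 1.90 (1.77 to 2.04) and 1.83 (1.44 to 2.26). With spots drawn down to 3000 UMIs before the call, a comparison added after seeing the data, the ratios without and with Acta2 were 2.81 and 1.0 for fibrillar, 1.25 and 0.23 for type VI and 1.91 and 0.87 for the basement membrane set. Col6a1 in spots with Acta2 was at 15.2 CPM in NCD and 17.3 CPM in HFD, a ratio of 0.18 (-0.35 to 0.77), so no difference was detectable there at this depth. The fibrillar to basement membrane ratio was 2.15 (1.54 to 3.04) with Acta2 and 0.834 (0.731 to 0.952) without in NCD, and 1.76 (1.66 to 1.86) and 1.37 (1.31 to 1.42) in HFD.

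Because a deeper spot is more likely to show an Acta2 UMI, spots were also classed after drawing down to 3000 UMIs. In HFD the fibrillar set was at 100 CPM in 3330 spots with 0 Acta2 UMIs, 211 CPM in 153 spots with 1, and 382 CPM (293 to 489) in 55 spots with more. Type VI was at 31.6, 56.6 and 212 CPM, and the basement membrane set at 70.3, 129 and 176 CPM. In NCD, where the classes held 2055, 40 and 12 spots, the fibrillar set was at 14.3, 117 and 167 CPM, the last from 6 UMIs, and the basement membrane set at 18.7, 66.7 and 111 CPM, the last from 4 UMIs. All 3 sets were thus higher with each step in both sections, though the intervals of the upper 2 classes overlap for all 3 sets in NCD and for the basement membrane set in HFD. Type VI in the top class was at 194 CPM in NCD and 212 CPM in HFD.

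At equal depth the sets were also found in each other's spots. In HFD, spots with a fibrillar UMI had type VI at a log2 ratio of 1.04 (0.73 to 1.34) over spots without, type I at 1.15 (0.93 to 1.37), Col14a1 at 0.65 (0.37 to 0.92) and basement membrane collagens at 0.55 (0.33 to 0.77). The highest pairing among the sets was type I in spots with type VI, 1.56 (1.3 to 1.82). In NCD, fibrillar spots had type VI at 2.39 (1.58 to 3.13), type I at 2.34 (1.55 to 3.05) and basement membrane collagens at 1.38 (0.46 to 2.18). Spots with a Col14a1 UMI had fibrillar collagens at 0.69 (0.47 to 0.91) in HFD and basement membrane collagens at 0.23 (-0.08 to 0.52).

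Of 4520 other genes ranked by the same measure in HFD, nearly the same few led for each set. For the fibrillar set they were Ccl21a at 2.06, a chemokine of lymphatic endothelium with near-identical gene copies that make its count uncertain, Acta2 at 2.01, Mgp at 1.87, the matrix Gla protein that restrains calcification of vessel walls, Gsn at 1.67, the actin-severing gelsolin, and Tagln at 1.45. In NCD these 5 were at 3.64, 3.15, 2.78, 2.15 and 3.62. For type VI they were Ccl21a at 3.61, Mgp at 2.70, Gsn at 2.33, Acta2 at 2.27 and Dpt, dermatopontin of fibroblasts, at 2.23, and in NCD at 3.83, 2.97, 2.49, 3.32 and 1.62. For the basement membrane set they were Ccl21a at 1.65, Gsn at 1.64, Acta2 at 1.5, Mgp at 1.44 and Csrp1, a LIM protein of smooth muscle, at 1.31, and in NCD at 1.3, 0.77, 2.40, 2.19 and 0.87. The 4 genes shared by the 3 lists had their highest HFD ratios in type VI spots. In NCD the intervals of Dpt for type VI, -0.085 to 2.98, and of Csrp1 for the basement membrane set, -0.51 to 1.99, held 0.

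Markers of collagen-making and neighbouring cells were compared in the same way, where 11.9% of all genes were at least 2-fold higher in HFD. Of 8 smooth muscle genes 6 were, summing to 30.5 CPM in NCD and 80.9 CPM in HFD, with Tagln the most abundant at 11.1 and 30.1 CPM. Of 10 fibroblast genes 8 were, summing to 45.3 and 120 CPM, led by Gas6, a ligand of the TAM receptors, at 23.5 and 63.3 CPM. Of 10 genes of quiescent stellate cells 1 was, summing to 263 and 291 CPM, with Ecm1 the most abundant at 154 and 115 CPM. The stellate list had a median log2 ratio of 0.54 beside 0.25 over all genes, and much of its sum is Ecm1, which was lower in HFD. The part of these lists in the result was not tested.

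Of the 5 bile duct genes with at least 50 UMIs, 4 were 2-fold higher in HFD, and the list of 6 summed to 50.1 and 201 CPM, of which Spp1, osteopontin, gave 43.5 and 187 CPM. Of 6 leukocyte genes 2 were 2-fold higher and 1 lower, with sums of 92.7 and 223 CPM and Lyz2, the lysozyme of macrophages, at 67.9 and 183 CPM. None of 6 hepatocyte genes was 2-fold different, with sums of 88643 and 101394 CPM led by Alb. Of 8 sinusoidal endothelial genes 1 was, with sums of 242 and 332 CPM, led by Fcgr2b in NCD and Clec4g in HFD, and of 8 vessel endothelial genes none was, with sums of 364 and 556 CPM led by Ephx1. Of 5 measurable blood stem cell genes 1 was, with sums of 30.6 and 42.4 CPM led by Hlf, a gene that hepatocytes also express. Of 6 mesothelial genes 2 reached 50 UMIs and 1, Krt19, which bile ducts share, was 2-fold higher, the sums being 2.58 and 4.31 CPM with Gpm6a and Krt19 in front and Upk3b at 0 in HFD. No other marker of these lists was at 0 in a section, and the part of any of them in the collagen result was not tested.

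In spots with Acta2, 4 of 4 smooth muscle genes that reached 50 UMIs, the class-defining Acta2 among them, and 6 of 7 fibroblast genes were at least 2-fold higher in NCD, as were 7 of 8 and 7 of 9 in HFD. Of the stellate genes 2 of 9 were in NCD and 1 of 10 in HFD, and of the sinusoidal endothelial genes none of 8 in either section. Of the bile duct genes 2 of 3 were in NCD and 4 of 5 in HFD, and of the mesothelial genes 2 of 2 were in HFD. Over all genes the shares were 3.44% in NCD and 2.68% in HFD.

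Genes that process, link and break down collagen were taken from lists. Of 15 measurable genes of collagen folding and secretion 5 were at least 2-fold higher in HFD, with a median log2 ratio of 0.70 and sums of 1120 and 1543 CPM. Among the most abundant, P4hb, the β subunit of prolyl 4-hydroxylase, was at 613 and 892 CPM, Ppib, a cyclophilin of the endoplasmic reticulum, at 225 and 270 CPM, Mia3, needed for export of procollagen, at 87.7 and 91.5 CPM, and Bmp1, the C-propeptidase, at 79.7 and 65.7 CPM. Of 5 crosslinking genes 4 were 2-fold higher, with sums of 44.1 and 124 CPM. Tgm2, transglutaminase 2, went from 37.7 to 107 CPM, the lysyl oxidase relatives Loxl1 from 3.41 to 8.86 CPM and Loxl2 from 1.03 to 5.35 CPM, and Loxl3 from 1.03 to 1.69 CPM.

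Of 11 fibril partners 4 were 2-fold higher, with a median of 0.94. Fn1, fibronectin, made by hepatocytes as well, was at 694 and 754 CPM, the small proteoglycans Dcn at 164 and 300.0 CPM and Bgn at 70.4 and 122 CPM, and Prelp at 39.8 and 59.7 CPM. Of 17 basement membrane partners 7 were 2-fold higher and 1 lower, with a median of 0.86. Sparc, a chaperone of type IV collagen, was at 35.3 and 83.0 CPM, Agrn, agrin, at 6.65 and 15.7 CPM, and Hspg2, perlecan, at 8.61 and 15.7 CPM. The abundant Col18a1, the source of endostatin, was near even at 403 and 482 CPM.

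Of 11 measurable genes of matrix breakdown 7 were 2-fold higher, with a median of 1.20 and sums of 67.2 and 136 CPM. Mmp12, the macrophage elastase, had the highest ratio of the genes named from these lists, from 41 to 1576 UMIs or 1.41 to 21.9 CPM, a log2 ratio of 3.95 (3.51 to 4.44). Mmp19 was at 25.0 and 32.2 CPM and the inhibitors Timp3 and Timp2 at 16.9 and 25.1 CPM and at 14.1 and 24.8 CPM. Of 5 measurable collagen receptors 1 was, Ddr1, a receptor kinase, from 0.551 to 3.34 CPM, while Itgb1, the shared integrin β1 chain, was at 82.9 and 87.7 CPM, Itga1 at 16.1 and 19.4 CPM and Lair1 at 3.06 and 4.22 CPM, and Gp6 was at 0 UMIs in NCD and 1 in HFD. Of 12 TGFβ and PDGF pathway genes 5 were 2-fold higher, with a median of 0.64. Ccn2, a TGFβ target, was at 15.5 and 25.1 CPM, the receptors Tgfbr2 and Tgfbr1 at 16.8 and 22.4 CPM and at 12.0 and 18.1 CPM, and the ligand Tgfb1 at 8.33 and 11.3 CPM. The collagens chosen for description here, with a median of 1.98, thus stood above the medians of these lists. They were chosen with earlier results of these data known, so this contrast is no independent support. It does not extend to collagens in general. The further collagen genes with at least 50 UMIs had a median of 1.11, below the 1.40 of crosslinking and the 1.20 of matrix breakdown.

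Of 32 further collagen genes 9 reached 50 UMIs and 6 of these were 2-fold higher in HFD, with a median log2 ratio of 1.11. The most abundant beside Col18a1 were Col5a3, another type V chain, at 8.30 and 11.1 CPM, Col13a1, a membrane-bound collagen, at 6.78 and 6.56 CPM, Col27a1, a fibrillar type of cartilage, at 1.79 and 4.65 CPM, and Col16a1, a fibril-associated type, at 1.89 and 4.53 CPM. Unlike Col5a1 and Col5a2, the type V gene Col5a3 had a log2 ratio of 0.42 (0.21 to 0.63).

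In the genome several of the 10 collagens are neighbours. On GRCm38, Col3a1 (ENSMUSG00000026043) lies at chr1:45311538-45349706 on the plus strand, and Col5a2 (ENSMUSG00000026042) at chr1:45374321-45503282 on the minus strand, with 24614 bases between them. Col4a1 (ENSMUSG00000031502, chr8:11198423-11312826, minus) and Col4a2 (ENSMUSG00000031503, chr8:11312805-11449287, plus) stand head to head and share 22 bases. Col6a2 (ENSMUSG00000020241, chr10:76595762-76623630, minus) and Col6a1 (ENSMUSG00000001119, chr10:76708792-76726168, minus) lie 85161 bases apart. Col6a3 (ENSMUSG00000048126) is at chr1:90765923-90843971 on the minus strand, Col5a1 (ENSMUSG00000026837) at chr2:27886425-28039514, Col14a1 (ENSMUSG00000022371) at chr15:55307750-55520803 and Col15a1 (ENSMUSG00000028339) at chr4:47208161-47313167, the last 3 on the plus strand. No gene of the tables overlaps one of them on the same strand, while Col4a1, Col4a2, Col5a1, Col14a1 and Col15a1 overlap genes on the other strand, and the strand setting of the counting is not given in the sources used here.

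Sequence before the start of transcription was read for 8 of the 10 genes from RefSeq on GRCm38.p6, in 9 windows of 100 bases, and Col5a2 and Col14a1 are named only. On either strand, TATAAA was in 5.56% of 32851 windows of all genes, CCAAT in 18.9% and GGGCGG in 24.7%. Of the 9 collagen windows none held TATAAA, 1 held CCAAT (Col4a2) and 3 held GGGCGG (Col4a2, Col5a1 and Col6a2). The windows of Col3a1, Col6a3 and Col5a1 are shown to let their base composition be seen, since they hold 43%, 65% and 71% G and C beside a median of 55% over all windows. They are chr1:45311438-45311537 (plus), chr1:90843972-90844071 (minus) and chr2:27886325-27886424 (plus), written 5′ to 3′ with a GGGCGG match in capitals.
Col3a1: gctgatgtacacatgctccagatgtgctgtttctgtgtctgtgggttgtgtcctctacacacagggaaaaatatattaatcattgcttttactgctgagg
Col6a3: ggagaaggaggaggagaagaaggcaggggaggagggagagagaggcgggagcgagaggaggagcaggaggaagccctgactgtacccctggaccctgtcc
Col5a1: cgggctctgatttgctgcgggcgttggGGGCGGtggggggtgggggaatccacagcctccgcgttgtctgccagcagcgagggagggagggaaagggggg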

How the data were processed

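Gene by spot matrices of 1 NCD and 1 HFD liver section were used, in which the deposited values are unnormalized UMI counts that the authors made with Space Ranger 1.3.1 on mm10 according to the submitters' processing notes. Filtered and raw matrices differed by 0 UMIs over the spots called over tissue. The members and gene lists were chosen with earlier results of these data known.

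Counts were summed over spots and divided by all UMIs of the same spots. Levels carry exact Poisson intervals, ratios exact conditional binomial intervals and shares Clopper-Pearson intervals, at 95%. Spots were drawn down without replacement to 3000 UMIs (alternative 1000) with seed 1 (other seed 2). The zone score was the mean z score of log(1 + UMIs per 10000) over 8 periportal genes minus that over 8 pericentral genes, in spots with at least 1000 UMIs. Genes were counted past a fold of 2 (sections, Acta2) or 1.5 (zones) with at least 50 UMIs over both groups compared together. Named were the 10 collagens and type I, the up to 4 genes with the most UMIs of each list, the genes defining zones and classes, the 5 most abundant other collagens, and the 5 genes with at least 200 UMIs after drawing down most concentrated in HFD spots of each set. Alternatives changed the depth, weighting and choice of spots, the zone score and the muscle gene. Positions come from GENCODE M21. The ratio intervals and the drawing down were run on simulated counts, drawn independently from a shared profile with known changes in some genes. Such counts lack clustering of spots and RNA off tissue. The run therefore checks the calculation and not how well the intervals suit these data. The software was scipy 1.17.1, numpy 2.4.6, pandas 2.3.3 and matplotlib 3.10.9 under Python 3.11.15.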

Additional observations from a re-analysis of the deposited data

Results flagged for a closer look

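Collagen transcripts were counted in spots outside the tissue outline, which the comparisons leave out. On the NCD slide these 1300 spots had the fibrillar set at 21.8 CPM, the basement membrane set at 21.1 CPM and type VI at 13.1 CPM, against 18.3, 19.0 and 11.7 CPM over tissue. On the HFD slide the 1398 spots had 55.6, 45.0 and 17.0 CPM, against 113, 75.5 and 37.3 CPM over tissue. These values are above the level that a count of 0 allows, and there is no control slide to set them against.

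The slides differed in how far tissue stood out. In NCD the log2 ratio of CPM over tissue to CPM off tissue was -0.13 (-0.27 to 0.01) for the 10 collagens together, 1 of the 9 with at least 50 UMIs was higher over tissue (Col14a1), against 49.2% of 10912 genes, and none had an interval above 0, against 9.76%. In HFD all 10 were higher over tissue, as were 86.7% of 12500 genes, and 9 had an interval above 0, against 31.2%, the exception being Col15a1. The ratios of the sets were 1.02 for fibrillar, 0.75 for basement membrane and 1.13 for type VI. On the NCD slide type I was lower over tissue than off it, at -0.49 (-0.75 to -0.21). Acta2 was at 9.06 CPM over tissue and 18.5 CPM off tissue in NCD, and Tagln at 11.1 and 17.9 CPM. Whether part of the tissue lay outside the outline or RNA spread was not tested.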

How the results depend on the processing

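No paired analysis was possible because the groups share only replicate number 1 and no result comes from a test. Over 9 alternatives the HFD to NCD log2 ratio of each collagen was above 0 in 81 of 81 values, from 0.88 (Col6a1 at 3000 UMIs) to 4.88 (Col5a2 at 1000 UMIs), and at least 2-fold in all but that of Col6a1 at 3000 UMIs. The value of 4.88 rests on 1 NCD spot with a Col5a2 UMI. Subtracting CPM off tissue gave a ratio for Col14a1 alone, 4.75, since the other NCD levels did not exceed those off tissue. Its NCD remainder, 0.828 CPM, is not separable from 0, so 4.75 gives no size. The Acta2 ratio was above 0 in 56 of 58 values in NCD and 60 of 60 in HFD, and the zone ratio in 42 of 60 and 35 of 60. Another seed moved no share of a set past its interval, but it moved those of some single genes past theirs. In NCD, spots with a UMI numbered 8 in place of 17 for Col5a1, 30 in place of 43 for Col6a1 and 72 in place of 54 for Col1a2. In HFD they numbered 89 in place of 68 for Col5a2.

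Drawn down to 1000 UMIs, the HFD to NCD log2 ratio was 2.81 for fibrillar and 1.85 for basement membrane collagens, the fibrillar to basement membrane ratio 0.657 in NCD and 1.28 in HFD with a log2 ratio of 0.96 between them, and the shares of spots 1.47% and 9.55% for fibrillar and 2.24% and 8.08% for basement membrane. At 3000 UMIs the NCD ratio was 0.850. The mean over spots put the basement membrane log2 ratio at 1.81, and off-tissue subtraction the HFD fibrillar to basement membrane ratio at 1.88. Without the 1% of spots richest in collagen, the fibrillar log2 ratio was 2.81 and the ratios 0.827 in NCD and 1.43 in HFD, and without smooth muscle spots they were 0.757 and 1.3.

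For the zones in HFD, a score from summed UMIs gave log2 ratios of 0.19 for fibrillar and 0.23 for basement membrane, narrower outer zones gave -0.094 for fibrillar, and leaving out the richest spots -0.079, both with the sign of the main 0.01 turned. Drawing down gave -0.058 for basement membrane, -0.086 for Col5a2 and -0.0058 for the 10 collagens in HFD, and 0.026 for Col1a2 in NCD, all 4 with the sign turned. Without smooth muscle spots fibrillar was at -0.63 in NCD, and in HFD fibrillar was at -0.31, basement membrane at -0.12 and the 10 collagens at -0.15, these 3 with the sign turned. The sign also turned in NCD for the 10 collagens, from 0.14 to -0.14, and for type VI, from 0.19 to -0.44. In HFD it turned for type I, from 0.02 to -0.37. Drawing down before leaving out those spots, added after seeing the data, gave -0.72 and -0.11 for fibrillar and, for type I in HFD, 0.040 in place of -0.37, with the sign turned. Counted without a minimum of UMIs, collagens 1.5-fold higher in periportal spots numbered 2 in NCD and 1 in HFD in the main analysis. Over the alternatives they numbered 1 to 3 and 0 to 2. Lower ones numbered 0 in both sections in the main analysis, and 0 to 2 and 0 to 1 over the alternatives. No share of all genes is given without that minimum, so nothing is read from these counts.

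For Acta2, drawing down before the call gave 3.17 and 1.36 for fibrillar and 2.04 and 1.00 for basement membrane in NCD and HFD, and at least 2 Acta2 UMIs gave 2.54 and 1.34, and 1.05 and 0.83. Without the richest spots fibrillar was at 1.31 and 0.63 and basement membrane at 0.34 in HFD, and Myh11 or Cnn1 in place of Acta2 gave 0.90 for fibrillar in HFD. Collagens at least 2-fold higher in HFD spots numbered 2 of 10, against 2.68% of all genes, but 8 after drawing down, against 4.35%. They numbered 6 with at least 2 Acta2 UMIs and 3 with Myh11 or Cnn1, calls for which no share of all genes is given. Drawing down and the call with at least 2 Acta2 UMIs both keep fewer spots, richer in Acta2. The other causes were not tested. Low counts limit Col15a1 and Col5a2 in NCD, with 28 and 47 UMIs.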
